A study of Mus musculus with 8 samples.

Results

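PMC-306 is a mast cell line that arose without any intervention in a culture of mouse peritoneal mast cells (PMCs). Described here are 6 genes, Cd24a, Gpm6a, Galnt18, Adgre1, Icam2 and Tgm2, out of the 55359 genes counted by RNA sequencing. They were chosen by their rise in PMC-306, that is by the level in PMC-306 over that in primary WT PMCs, so that this difference is given as a description and was not tested. The choice set no threshold, and all 6 passed the filter of at least 1 CPM, in PMC-306 or in the mean of the primary cultures. CPM stands for counts per 1000000 counts of a library.

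RNA came from 8 untreated cultures, 1 of PMC-306, 1 of PMC-303, a further line transformed from PMCs, and 6 of primary PMCs, 3 from female and 3 from male mice. All cultures derive from wild-type mice of the mixed background C57BL/6x129/Sv, and were grown with IL-3 and stem cell factor (SCF). Both lines were kept in less SCF and less fetal calf serum than the primary cultures, so that medium and transformation cannot be told apart. Each line is a single library and stands for a single culture. The labels call the primary cultures of each sex biological replicates, but do not say whether they came from separate mice.

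The 8 libraries held between 15918758 and 24180226 estimated counts. A count of 0 allows up to 3 counts, between 0.123 and 0.187 CPM, which covers counting error only. Library sizes were adjusted by TMM, the trimmed mean of M values, before CPM was computed. A fold is the CPM of a line plus 0.1 over the mean of the 6 primary cultures plus 0.1. All 12 mast cell markers were detected in PMC-306, led by Cpa3, the mast cell carboxypeptidase, at 22835 CPM. Tpsb2, which encodes a granule tryptase, was the marker that differed by at least 5-fold, with 20.9 CPM in PMC-306, 177 in PMC-303 and 6309 ± 3242 CPM in primary PMCs (SD, n = 6).

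Mast cells carry receptors for IgE and SCF on their surface together with adhesion molecules and glycoproteins that differ between maturation states and tissues. Cd24a encodes CD24, a small, heavily glycosylated protein held in the membrane by a glycosylphosphatidylinositol (GPI) anchor, and Gpm6a a proteolipid with several membrane spans that is best known from neurons. Galnt18 belongs to the family of enzymes that start mucin-type O-glycosylation in the Golgi. Adgre1 encodes F4/80, an adhesion G protein-coupled receptor used as a marker of mouse macrophages and also found on eosinophils. Icam2 encodes an adhesion molecule bound by leukocyte integrins. Tgm2 encodes transglutaminase 2, an enzyme that crosslinks proteins and is found in the cytosol, at the surface and in the matrix. The products of Cd24a, Gpm6a, Adgre1 and Icam2 are thus surface proteins, whereas that of Galnt18 is not and that of Tgm2 is so only in part.

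The 6 genes followed 3 patterns across the lines. Cd24a, Gpm6a, Galnt18 and Icam2 lay above every primary culture in both lines. Adgre1 was above every primary culture in PMC-306 and below every one in PMC-303. Tgm2 was above every primary culture in PMC-306 and within their range in PMC-303. Of all genes that passed the filter, 34.6% were above every primary culture in PMC-306, 36.3% were above and 30.2% below every one in PMC-303. A fold of at least 5 upwards was reached by 3.96% of genes in PMC-306 and 3.90% in PMC-303, and by 6 and 3 of the 6 genes, respectively. In PMC-303 Adgre1 and Tgm2 were at least 5-fold lower than the primary mean, as were 3.16% of all genes. The count in PMC-306 follows from the choice of the genes, and both lines were compared with the same 6 primary cultures.

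**Figure D1:**
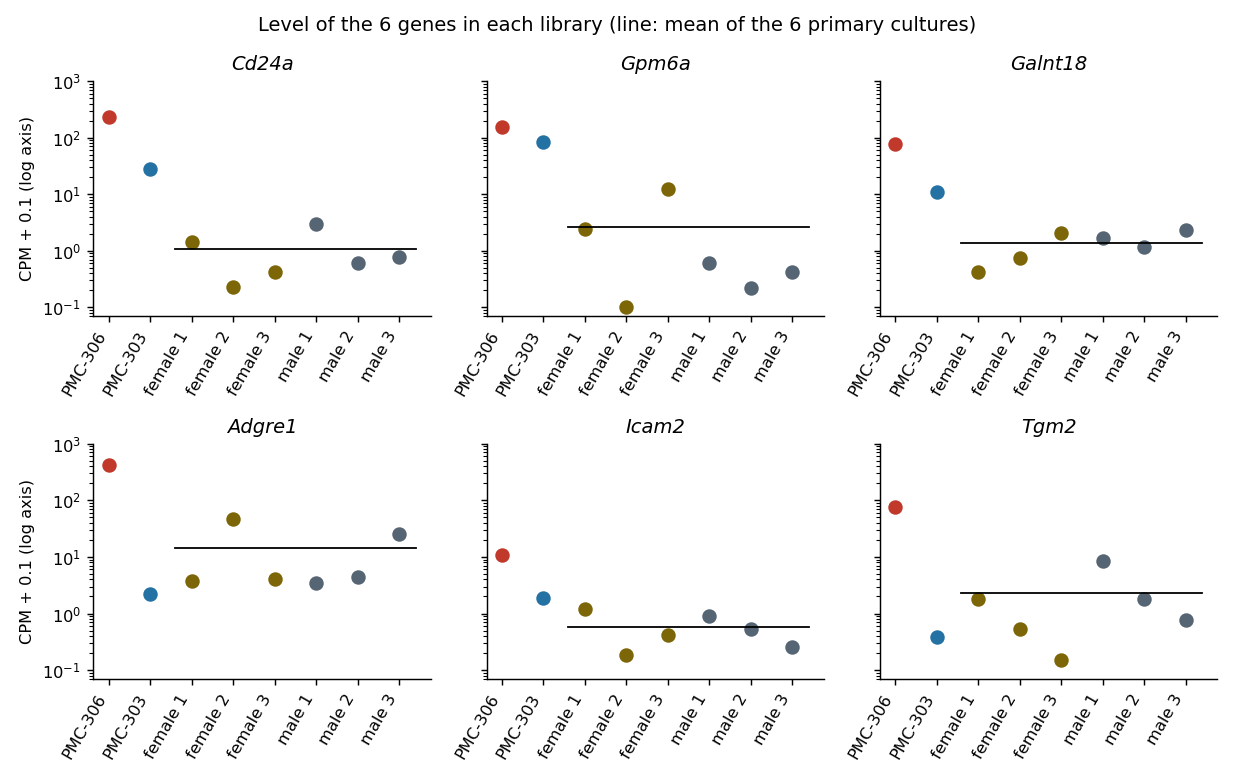
CPM + 0.1 on a log axis for the 6 genes in each of the 8 libraries, with PMC-306 in red, PMC-303 in blue, female cultures in ochre and male cultures in grey; each point is 1 library and the line is the mean of the 6 primary cultures. PMC-306 is the highest library for every gene, while PMC-303 is the second highest for Cd24a, Gpm6a, Galnt18 and Icam2, the lowest for Adgre1 at 2.10 CPM and among the low libraries for Tgm2 at 0.288 CPM.

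The sequence before the start of Gpm6a is shown because Gpm6a had the highest level in PMC-303 of the 6 genes and a single listed transcript, whose start can be placed. RefSeq gives 2 starts for Gpm6a, 175 kb apart on chromosome 8 of GRCm38.p6. The first 30 bases of the only deposited transcript, Gpm6a-201, begin 44 bases before the downstream start, within the window below, and do not occur in the window of the upstream start. The window covers the 250 bases before the downstream start, chr8:54954478-54954727 on the plus strand, and the capitals mark 2 motif matches.

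Gpm6a: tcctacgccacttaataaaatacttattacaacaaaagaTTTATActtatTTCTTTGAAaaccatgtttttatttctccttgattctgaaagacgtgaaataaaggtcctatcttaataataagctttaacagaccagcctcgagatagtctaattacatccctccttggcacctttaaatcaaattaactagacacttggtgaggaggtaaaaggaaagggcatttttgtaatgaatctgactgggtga

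The window was 33.6% G or C, and 96.1% of the 32851 promoter windows in the RefSeq table had more. The table held 1 of the 6 genes. A total of 9 motifs were searched on both strands. The first capitals are TATAAA, the TATA box, on the opposite strand, 211 bases before the start, at a distance from the start that is far from where a TATA box usually lies, and 12.4% of all windows hold this motif. The second capitals match the STAT5-type motif TTCNNNGAA 200 bases before the start, which 7.02% of windows hold. The window held no AGATAA (9.99% of windows), GAGGAA (23.3%), CCGGAAG (6.91%), CACGTG (6.02%), CATGTG (12.3%) or GGGCGG (32.7%), and no interferon response motif (2.98%). The window of the upstream start held GAGGAA, a PU.1-type ETS motif, at -99 and an interferon response motif at -71. These matches describe letters and not binding sites.

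Cd24a (ENSMUSG00000047139.10) lies on chromosome 10 from 43454280 to 43460264 on the plus strand of GRCm39. PMC-306 had 236 CPM (95% exact Poisson interval 229.6 to 243, counting error only) and PMC-303 had 27.6 CPM (25.6 to 29.8). Female cultures 1 to 3 had 1.33, 0.132 and 0.316 CPM, and male cultures 1 to 3 had 2.86, 0.497 and 0.682 CPM. Both lines thus stood clear of the primary cultures, which were low throughout, at 0.970 ± 1.01 CPM (SD, n = 6). The fold was 221 in PMC-306, the largest but 1 of 13064 genes, and 25.9 in PMC-303, where it ranked 17 of 13024 genes. Without male culture 1, the highest, the log2 fold in PMC-306 was 8.42 instead of 7.79, and in PMC-303 5.32 instead of 4.70. Cd24a has intronless copies elsewhere in the mouse genome, so that its count is uncertain by the reads that such copies share with it.

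Gpm6a (ENSMUSG00000031517.9) lies on chromosome 8 from 55407719 to 55513912 on the plus strand of GRCm39. It had 153 CPM in PMC-306 (147 to 158) and 82.9 CPM in PMC-303 (79.3 to 86.6), the smallest ratio between the lines of the 6 genes, 1.84. Female cultures 1 to 3 had 2.34, 0 and 12.1 CPM, from 51, 0 and 230 counts. Male cultures 1 to 3 had 0.511, 0.124 and 0.315 CPM, from 10, 2 and 6 counts. Female culture 3 was the highest primary culture by far, while female culture 2 had no count at all, so that the mean of 2.57 ± 4.76 CPM (SD, n = 6) rests on 1 culture. The fold was 57.2 in PMC-306 and 31.1 in PMC-303. Without female culture 3 the log2 fold was 7.65 instead of 5.84 in PMC-306 and 6.77 instead of 4.96 in PMC-303, and against the male cultures alone it was 8.52 and 7.64.

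Galnt18 (ENSMUSG00000038296.15) is a minus-strand gene of chromosome 7, from 111070855 to 111379410. PMC-306 had 76.8 CPM (73.0 to 80.7) and PMC-303 11.0 CPM (9.75 to 12.4). Female cultures had 0.322, 0.659 and 1.95 CPM and male cultures 1.58, 1.06 and 2.20 CPM. The primary cultures were at 1.30 ± 0.741 CPM (SD, n = 6), and both lines were above all of them. The fold was 55.1 in PMC-306 and 7.97 in PMC-303, rank 25 of 13064 and rank 292 of 13024 genes.

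Adgre1 (ENSMUSG00000004730.16) lies on chromosome 17 from 57665573 to 57790527 on the plus strand. It had 426 CPM in PMC-306 (417 to 435) and 2.10 CPM in PMC-303 (1.56 to 2.76), so that the lines differed 203-fold. Female cultures had 3.72, 46.4 and 3.95 CPM and male cultures 3.37, 4.35 and 25.3 CPM. The primary cultures fell into 4 with between 3.37 and 4.35 CPM and 2, female 2 and male 3, with 46.4 and 25.3 CPM. Their mean was 14.5 ± 17.8 CPM (SD, n = 6) and their median 4.15 CPM. The fold to the mean was 29.1 in PMC-306 and 0.150 in PMC-303, whose Poisson interval overlapped that of the lowest primary culture, male 1 (2.61 to 4.29 CPM). Against the median the log2 fold was 6.65 instead of 4.86 in PMC-306 and -0.95 instead of -2.73 in PMC-303, and without female culture 2 it was 5.69 and -1.91.

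Icam2 (ENSMUSG00000001029.16) is a minus-strand gene of chromosome 11, from 106263312 to 106278943 and had the lowest level of the 6 genes in PMC-306. PMC-306 had 10.6 CPM (9.19 to 12.1) from 215 counts and PMC-303 1.77 CPM (1.28 to 2.38) from 43 counts. Female cultures had 1.10, 0.0879 and 0.316 CPM and male cultures 0.817, 0.435 and 0.157 CPM, or 0.486 ± 0.397 CPM over all 6 (SD). PMC-303 was above the highest primary culture, female 1. The fold was 18.2 in PMC-306 and 3.19 in PMC-303, and with 1 CPM added in place of 0.1 the log2 fold in PMC-306 was 2.96 instead of 4.18.

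Tgm2 (ENSMUSG00000037820.16) is a minus-strand gene of chromosome 2, from 157958322 to 157988359. PMC-306 had 75.6 CPM (71.9 to 79.5) from 1540 counts, whereas PMC-303 had 0.288 CPM (0.116 to 0.594) from 7 counts, 262-fold less. Female cultures had 1.70, 0.439 and 0.0527 CPM and male cultures 8.53, 1.68 and 0.682 CPM. Male culture 1 was the highest primary culture, and female culture 3 had a single count. The mean was 2.18 ± 3.18 CPM (SD, n = 6), and the fold was 33.2 in PMC-306 and 0.170 in PMC-303. Without male culture 1 the log2 fold was 6.23 instead of 5.05 in PMC-306 and -1.38 instead of -2.55 in PMC-303.

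**Figure D2:**
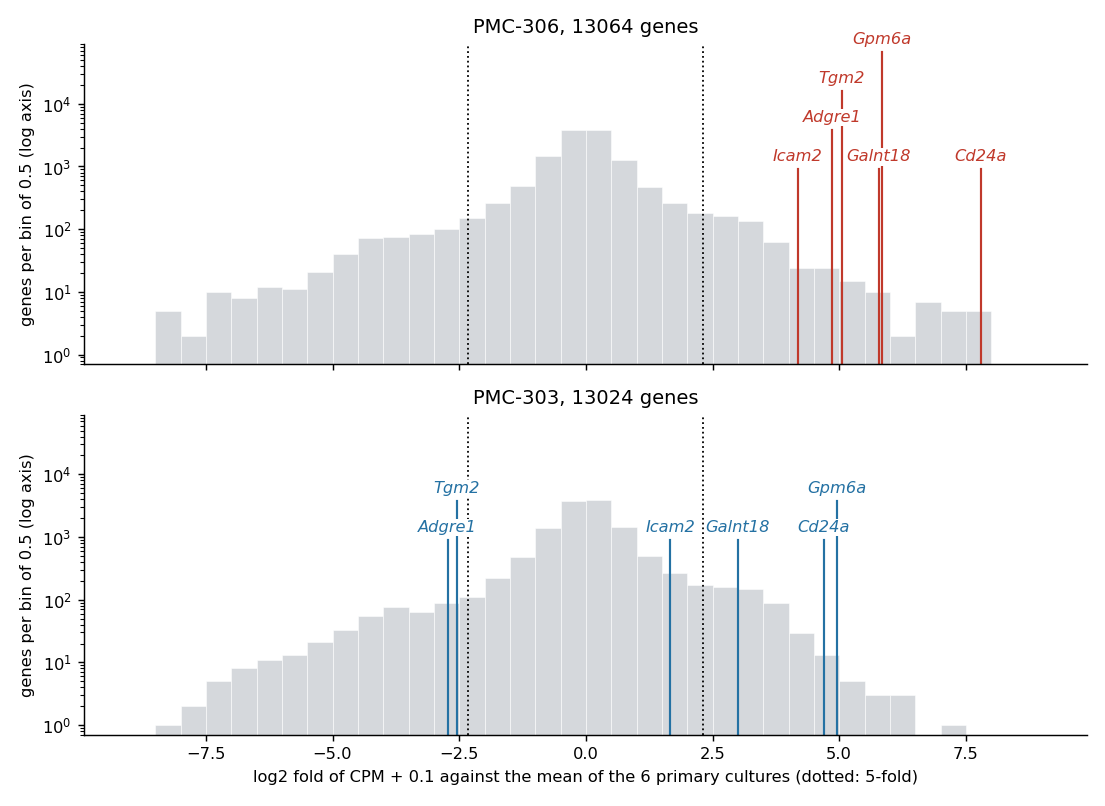
Number of genes (log axis) by log2 fold of CPM + 0.1 against the mean of the 6 primary cultures, for PMC-306 (top, 13064 genes) and PMC-303 (bottom, 13024 genes); coloured lines mark the 6 genes and dotted lines 5-fold. In PMC-306 the 6 genes lie between 4.18 and 7.79, whereas in PMC-303 they spread from -2.73 for Adgre1 to 4.96 for Gpm6a.

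Set against each other per length, in TPM, a share of transcripts corrected for their length, the levels in PMC-306 ran in the order Adgre1 at 181 TPM, Cd24a at 160.4, Gpm6a at 55.6, Galnt18 at 36.0, Tgm2 at 25.5 and Icam2 at 15.1. By TPM Adgre1 ranked 555 among all genes of that library, Cd24a 613 and Icam2 5827. In PMC-303 the order was Gpm6a at 29.2 TPM, Cd24a at 18.0, Galnt18 at 5.01, Icam2 at 2.18, Adgre1 at 0.734 and Tgm2 at 0.0903. With 1 library per line the order within a line has no replicate check.

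The comparison of female with male primary PMCs took no part in the choice of the genes. With limma on log2(CPM + 0.1), 6 of 13693 genes tested differed at an adjusted p under 0.05, or 0.0438%, and 3.34% at an unadjusted p under 0.05. Cd24a, Galnt18, Adgre1 and Tgm2 were tested and 0 of them passed, also by the unadjusted p, while Gpm6a and Icam2 did not reach the minimum count for this test. The difference of female from male cultures on the log2 scale was -1.11 (SE 0.86, unadjusted p 0.243) for Cd24a and -0.92 (SE 0.61, unadjusted p 0.176) for Galnt18. It was 0.29 (SE 1.16, unadjusted p 0.809) for Adgre1 and -2.11 (SE 1.15, unadjusted p 0.110) for Tgm2. For Adgre1 the sign turned when female culture 2 was left out (-0.90), as it did without male culture 1 (-0.25) or male culture 2 (-0.07).

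Because Adgre1 is a macrophage marker, 12 other macrophage genes were examined in the same libraries. In bulk RNA, fewer cells of a type and less RNA per cell cannot be told apart. The summed level of these 12 genes was 16.4 CPM in PMC-306 and 7.78 in PMC-303, with a range of 4.17 to 23.5 CPM over the primary PMCs. In PMC-306, which had 426 CPM of Adgre1, 9 of the 12 had 3 counts or fewer and 6 had 0, among them C1qa, C1qb, Mertk and Marco. The sum there was mostly Cd68, a lysosomal protein of many myeloid cells, at 13.9 CPM, and Lyz2, the myeloid lysozyme, was at 1.13 CPM. Of 11 markers of large peritoneal macrophages 10 had 3 counts or fewer in PMC-306, and the highest was Garnl3 at 1.92 CPM. Of 8 eosinophil markers 5 had 0 counts in PMC-306, and the highest was Il5ra, the IL-5 receptor chain, at 24.0 CPM in PMC-306, 23.1 in PMC-303 and 4.12 ± 3.87 CPM in primary PMCs (SD, n = 6). Il5ra thus had close values in both lines, whereas those of Adgre1 were far apart.

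Across the 6 primary cultures the log2 level of each of the 6 genes was set against the summed macrophage markers, which gives 6 relations. Gpm6a was lower where the sum was higher, with Pearson's r = -0.93 (exact permutation p = 0.00833, adjusted 0.050) and Spearman's rho = -1.0 (exact permutation p = 0.00278, the smallest that 6 cultures allow, adjusted 0.0167). Without the 2 cultures farthest from the median of the sum, r was -0.95. With TPM in place of CPM rho was -0.94 and its adjusted exact permutation p 0.10, so that this relation passed the threshold by CPM and not by TPM. It rests on counts of Gpm6a between 0 and 230. Adgre1 itself had r = 0.53 and rho = 0.71 (exact permutation p = 0.256 and 0.136, adjusted 0.635 and 0.408). Female culture 2 was the highest in both Adgre1 and the sum, whereas male culture 2 had 20.5 CPM of the sum and 4.35 CPM of Adgre1. These high sums came from different genes, Lyz2 at 18.0 CPM in female culture 2 and Cd68 at 17.8 CPM in male culture 2. Lyz2 was next highest in male culture 3, at 5.72 CPM, and between 1.18 and 2.35 CPM in the others. Apart from Lyz2, Cd68 and Fcgr1, no gene of the sum exceeded 0.255 CPM in a primary culture. The sum thus reflects few genes, also in its relation with Gpm6a. For Cd24a, Galnt18, Icam2 and Tgm2 r lay between -0.40 and 0.22, and their adjusted permutation p was 0.635 or more.

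**Figure D3:**
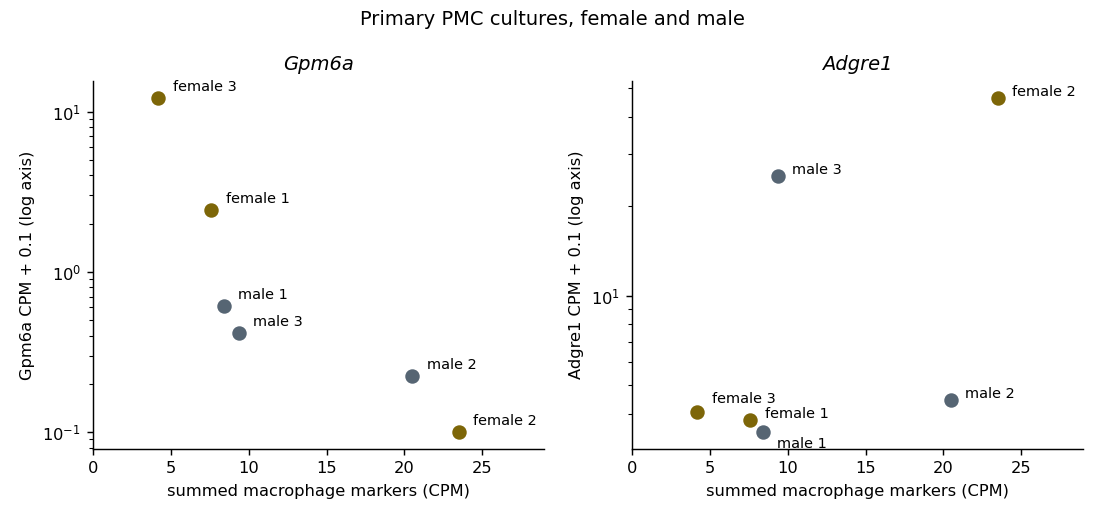
CPM + 0.1 (log axis) of Gpm6a (left) and Adgre1 (right) against the summed CPM of 12 macrophage markers in the 6 primary cultures, each point 1 culture, female in ochre and male in grey. Gpm6a falls from 12.1 CPM in female culture 3 to 0 in female culture 2 as the sum rises from 4.17 to 23.5 CPM, while Adgre1 is high in female culture 2 and male culture 3 alone.

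Markers of other cells were low or within the primary range in most cases. As Icam2 is also an endothelial gene, 8 endothelial markers were examined, of which 5 had 3 counts or fewer in PMC-306, Cdh5, Kdr, Cldn5 and Emcn among them. The highest was Pecam1, at 382 CPM in PMC-306, 385 in PMC-303 and 372 ± 51.7 CPM in primary PMCs (SD, n = 6). Vwf was below every primary culture in both lines, at 17.8 CPM in PMC-306 and 62.5 in PMC-303 against 187 ± 47.4 CPM (SD, n = 6). Tek was so as well, at 0.0982 and 0.0412 CPM against 2.33 ± 2.36 CPM (SD, n = 6). As Gpm6a is a neuronal gene, 8 neuronal markers were examined, whose sum was 3.00 CPM in PMC-306, 17.9 in PMC-303 and, in primary PMCs, from 3.58 to 58.8 CPM, and the highest in PMC-306 was Stmn2 at 1.37 CPM. The erythroid list summed to 27.7 CPM in PMC-306 and 16.8 in PMC-303 against at most 8.44 CPM in primary PMCs. These sums came from different genes. The α-globin gene Hba-a1 was at 22.8 CPM in PMC-306 and 0 in PMC-303. Epor, the erythropoietin receptor gene, was at 3.24 CPM in PMC-306, 16.0 in PMC-303 and 5.68 ± 1.55 CPM in primary PMCs (SD, n = 6). The highest B cell, T cell and fibroblast markers in PMC-306 were Ighm at 6.33 CPM, Il7r at 3.29 CPM and Col1a2 at 0.0982 CPM. Il7r was above every primary culture there (highest 0.358 CPM) and at 0.123 CPM in PMC-303. Ighm was at 21.4 CPM in PMC-303 and at most 12.5 CPM in primary PMCs. The part of such cells in the levels of the 6 genes was not tested beyond these values.

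The listed transcripts were read next, with the limit that reads in shared exons are divided between transcripts by estimate. Gpm6a has 1 listed transcript, and Cd24a-201 held 99.4% of the Cd24a count in PMC-306 and 100% in PMC-303 and the primary cultures. Galnt18-202 held 98.4% in PMC-306 and 100% elsewhere. Adgre1-202, with 22 exons, held 94.4% in PMC-306, 100% in PMC-303 and 98.6% in the pooled primary cultures. Adgre1-201, with 23 exons and the same coding length of 2793 bases, was estimated at 384.8 counts in PMC-306, 4.44% of the gene, and at 0 in all other libraries, female culture 2 with its 1057 Adgre1 counts included. Icam2-201 held 74.3% in PMC-306, 84.2% in PMC-303 and 86.3% in the primary cultures, and Icam2-203, which starts further upstream, 21.8%, 12.6% and 3.72%, the last from few counts. Tgm2-201 held 95.9% in PMC-306, where the retained intron transcript Tgm2-202 held 4.12% (63.403 counts).

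Neighbouring genes were compared to see whether the rise of each gene was shared along the chromosome. For each gene the 5 nearest genes on either side were taken from GENCODE M39 on GRCm39. They had at least 1 CPM in either line or in the mean of the primary cultures. Of these 60 genes, 6 were at least 5-fold higher in PMC-306 and 3 at least 5-fold lower, beside 3.96% and 3.83% of all genes, and 4 of the 6 lie within Gpm6a. Those 4 and Crybg1, near Cd24a, averaged at most 0.115 CPM in primary cultures and passed the filter only through a line. The count of higher genes thus follows in part from the filter. The shares of all genes used PMC-306 or the primary mean as filter, without PMC-303. The median log2 fold of the 60 was 0.01 in PMC-306 and 0.20 in PMC-303.

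The 4 genes within Gpm6a, Gm45265, Gm45263, Gm45264 and Gm45262, are on its strand, so that their reads cannot be told from unspliced Gpm6a RNA. Their log2 folds were 4.60, 5.11, 4.77 and 3.85 in PMC-306 and 3.52, 3.76, 3.59 and 2.55 in PMC-303, next to 5.84 and 4.96 for Gpm6a. Beyond them, the nearest genes were Wdr17, at a log2 fold of 0.64 in PMC-306 and 2.83 in PMC-303, and Cep44, at 0.25 and 0.51. The folds of Wdr17 rest on values near the floor. It had 0.147 CPM in PMC-306, 1.03 in PMC-303 and 0.0583 ± 0.0830 CPM in primary PMCs (SD, n = 6). Sap30, the farthest of the 5 on that side, was at 2.19 in PMC-306 and 2.56 in PMC-303. The median log2 fold of the 698 measured genes of chromosome 8 was 0.22 in PMC-303, against a median of 0.02 over all genes, and 0.04 in PMC-306, both far below the fold of Gpm6a.

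Mtres1 overlaps Cd24a on the opposite strand and had log2 folds of 0.27 in PMC-306 and 0.08 in PMC-303. On the other side of Cd24a, Qrsl1 had 0.84 in PMC-306, and Crybg1, 366 kb away, had 2.31 CPM in PMC-306, 0 in PMC-303 and 0.115 ± 0.0939 CPM in primary PMCs (SD, n = 6). Galnt18 lay between Zbed5-ps (-0.16 in PMC-306) and Usp47 (0.09). Irag1, 489 kb from Galnt18 and known as a target of cGMP-dependent kinase, was higher in PMC-303 than in PMC-306, at 63.9 CPM in PMC-306, 311 in PMC-303 and 4.41 ± 4.60 CPM in primary PMCs (SD, n = 6).

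Vav1, a signalling protein of blood cells and the nearest gene before Adgre1, had a log2 fold of -0.28 in PMC-306. After Adgre1 came Gm5815 at -2.46 and Nudt12 at -4.41 in PMC-306, with Nudt12 at 0.589 CPM in PMC-306, 10.8 in PMC-303 and 14.5 ± 2.79 CPM in primary PMCs (SD, n = 6). None of the neighbours of Icam2 came near it. Ern1, 4.88 kb away, was at -0.41, Smarcd2 at -0.11 and Pecam1 at 0.04 in PMC-306, and all 10 lay between -0.41 and 0.38. Rprd1b overlaps Tgm2 on the opposite strand and was at -0.04 in PMC-306, and Snhg17 on the other side was at -0.55. Gm23925 had 0 counts in PMC-306, which allows 0.147 CPM, and 0.534 ± 0.636 CPM in primary PMCs (SD, n = 6).

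**Figure D4:**
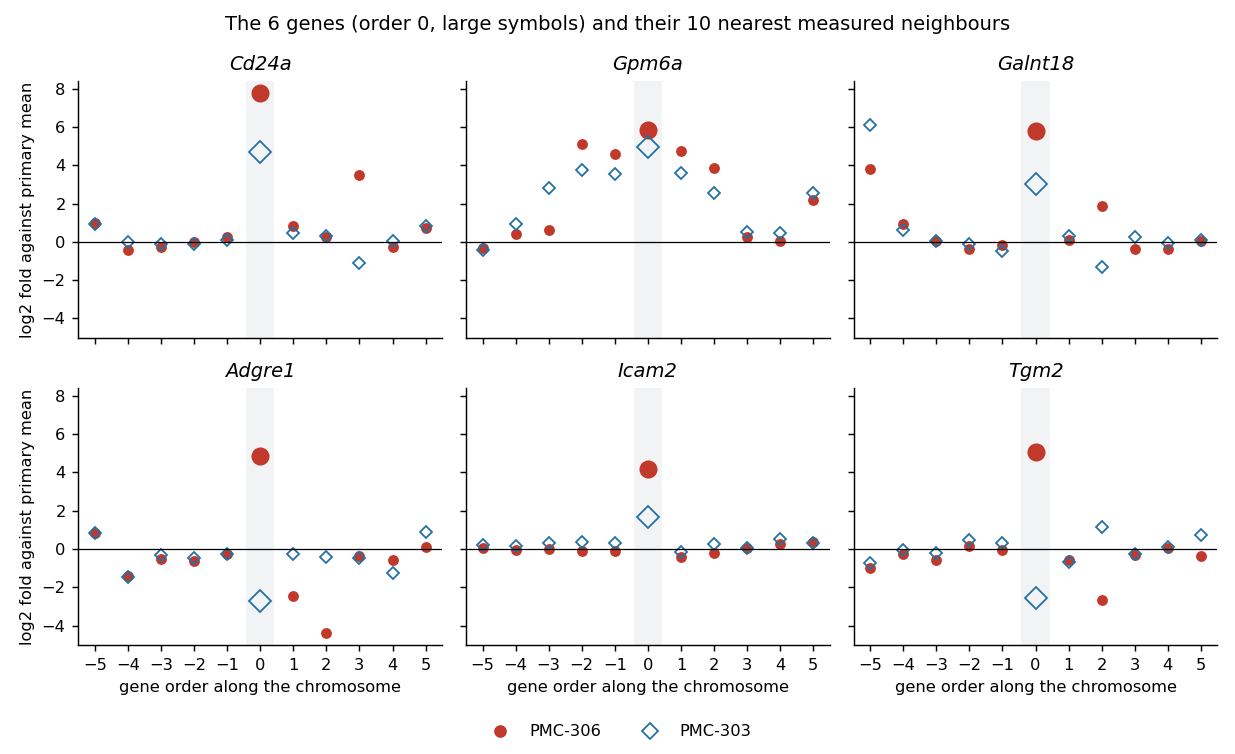
Log2 fold of CPM + 0.1 against the mean of the primary cultures for the 6 genes (order 0, large symbols) and the 5 nearest measured genes on either side by order along the chromosome, in PMC-306 (red circles) and PMC-303 (open blue diamonds). High values on both sides are seen at Gpm6a, where the 4 nearest are genes within it (3.85 to 5.11 in PMC-306), whereas the 10 neighbours of Icam2 lie between -0.41 and 0.38 in PMC-306.

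Relatives and partners of the 6 genes were then read from 9 lists. For these genes both lines together were compared with the 6 primary cultures by limma, a fit in which 18.3% of 14525 genes were higher and 15.5% lower at an adjusted p under 0.05. Over the 9 lists 8 genes were higher and 13 lower. The gene entries tested were 8, 2, 3, 9, 11, 10, 9, 2 and 4 per list, in the order of the lists below. These counts were not tested against the shares of all genes. Without PMC-306 the genes called lower were 7, and against the female cultures alone 3 were higher and 1 lower. The median log2 fold of all genes in PMC-306 was -0.01.

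Among 17 other GPI-anchored proteins of blood cells 8 could be tested, of which 0 were higher and 4 lower (Ly6a, Ly6e, Cd55 and Bst2). Cd52 was the exception that resembled Cd24a in PMC-306, with 41.3 CPM there, 0.0823 CPM in PMC-303 and 0.243 ± 0.155 CPM in primary PMCs (SD, n = 6), a 121-fold difference, but it was not shared with PMC-303. Prnp, the prion protein, was at 9.67 CPM in PMC-306, 205 in PMC-303 and 217 ± 64.0 CPM in primary PMCs (SD, n = 6). Ly6e was low in both lines, at 3.68 CPM in PMC-306 and 12.6 in PMC-303 against 79.8 ± 45.8 CPM (SD, n = 6). Of 4 genes whose products bind CD24, Siglecg, the inhibitory lectin, and Selp had 1 and 0 counts in PMC-306. Selplg, the P-selectin ligand, was at 145 CPM in PMC-306 and 56.4 in PMC-303 against 52.1 ± 33.2 CPM in primary PMCs (SD, n = 6), and L1cam, a neuronal adhesion molecule, was lower in the lines.

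Of the relatives of Gpm6a, Plp2 was higher in the lines, at 122 and 102 CPM against 47.6 ± 7.0 CPM in primary PMCs (SD, n = 6; limma log2 difference 1.24, SE 0.15, adjusted p = 0.000591). Gpm6b, the nearest relative of Gpm6a, had 0 counts in PMC-306 and was at 0.288 CPM in PMC-303. Among 18 other enzymes of the Galnt18 family 9 were tested. Galnt7, Galnt10 and Galnt12 were higher in the lines by 1.01, 0.90 and 1.17 on the log2 scale (limma, adjusted p = 0.000885, 0.00993 and 0.000818), and Galnt11 was lower. Galnt3 exceeded 5-fold in PMC-306, at 6.04 CPM against 1.09 ± 1.08 CPM in primary PMCs (SD, n = 6), with 1.03 CPM in PMC-303, and did not pass the test. Of the enzymes that extend or cap mucin-type O-glycans 11 gene entries were tested, St6galnac2 having more than a single entry. C1galt1, St3gal4 and St6galnac6 were higher and St6galnac3 and St6galnac4 lower. The most abundant of them, Gcnt1, was at 594 CPM in PMC-306 against 616 ± 46.2 CPM in primary PMCs (SD, n = 6), and St3gal2 at 33.9 CPM against 134 ± 48.7 CPM. The larger entry of St6galnac2 was counted in some primary cultures only. It had 67.9, 78.2 and 80.1 CPM in female cultures 2 and 3 and male culture 3 and at most 0.0459 CPM in the others. In PMC-306 this entry was at 126 CPM and in PMC-303 at 11.9. The smaller entry was at 5.34 CPM in PMC-306, 0.602 in PMC-303 and at most 3.34 CPM in primary PMCs.

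None of the other adhesion G protein-coupled receptors tested was higher in the lines. Of 27 listed genes 10 were tested, with 0 higher and 3 lower (Adgrg3, Adgrl1 and Celsr3), and the median log2 fold in PMC-306 of the 9 with at least 1 CPM was -1.55. Adgra3 had 2 counts in PMC-306, while PMC-303 had 8.64 CPM and primary PMCs 11.1 ± 2.59 CPM (SD, n = 6). Adgrg6 was at 2.46, 36.9 and 27.2 ± 11.4 CPM, in this order. Adgre5, which encodes CD97, a close relative of F4/80, was at 572 CPM in PMC-306 and 364 in PMC-303 against 609 ± 89.1 CPM in primary PMCs (SD, n = 6).

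Of the ICAM family, its integrin receptors and the proteins that link it to actin, 9 of 13 genes were tested, with Rdx higher and Msn lower. Icam1, the best known relative of Icam2, was at 34.8 CPM in PMC-306, 27.2 in PMC-303 and 29.1 ± 4.21 CPM in primary PMCs (SD, n = 6). Itgam, which encodes CD11b, was at 4.66 CPM in PMC-306, 0 in PMC-303 and 0.321 ± 0.208 CPM in primary PMCs (SD, n = 6), an 11.3-fold difference in PMC-306. Its partner Itgb2 was at 42.3 CPM in PMC-306 and 7.08 in PMC-303 against 30.2 ± 14.4 CPM (SD, n = 6), and Itgal, which pairs with Itgb2 to bind ICAM2, had 1 count in PMC-306.

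Of 8 other transglutaminase genes 2 were tested, and 0 passed. Tgm1 was at 0.638 CPM in PMC-306 against 7.78 ± 1.87 CPM in primary PMCs (SD, n = 6), and at 10.4 CPM in PMC-303, the reverse of Tgm2. F13a1, the chain of coagulation factor XIII, was at 11.8 CPM in PMC-306, at 0 in PMC-303 and ranged from 0.0525 to 27.2 CPM in primary PMCs. Of 6 surface and matrix partners of transglutaminase 2 Itgb3 was lower in the lines, at 3.54 CPM in PMC-306 and 1.28 in PMC-303 against 19.6 ± 10.5 CPM in primary PMCs (SD, n = 6; limma adjusted p = 0.00763). Fn1, the fibronectin gene, had 1 count in PMC-306, and Itgb1 was at 151 CPM there and at 202 ± 11.6 CPM in primary PMCs (SD, n = 6).

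**Figure D5:**
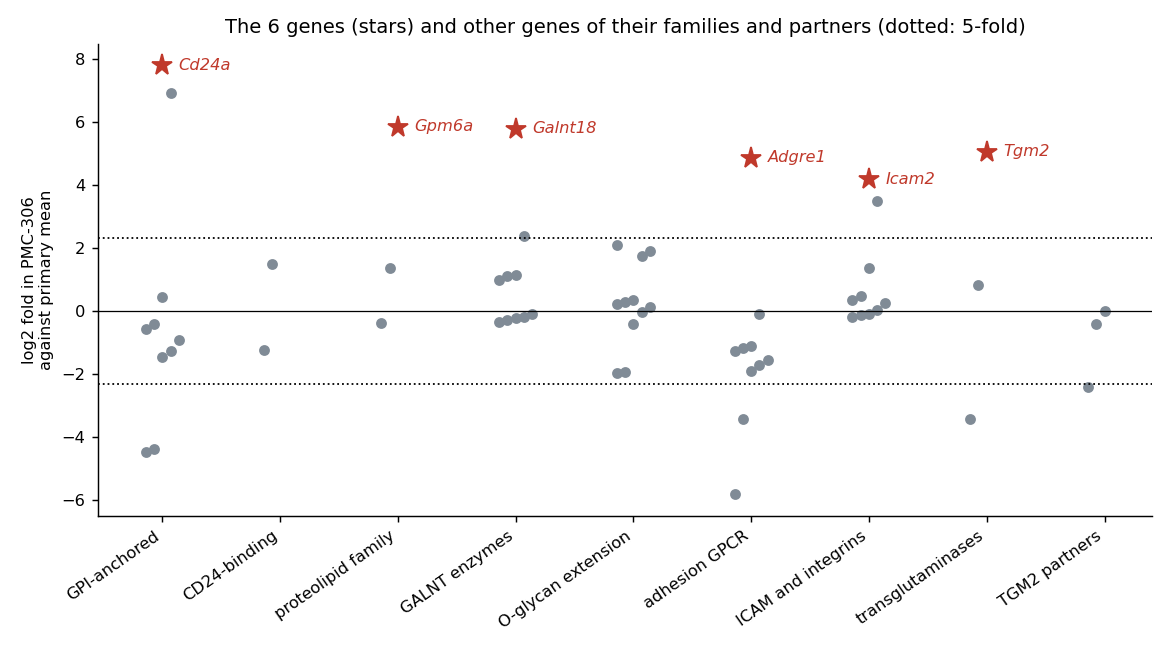
Log2 fold of CPM + 0.1 in PMC-306 against the mean of the 6 primary cultures for the 6 genes (red stars) and other genes with at least 1 CPM in 9 lists of relatives and partners (grey points, 1 per gene), with dotted lines at 5-fold. Each star is above every other gene of its list, which follows in part from the choice of the 6 genes by their rise in PMC-306. Cd52, at 6.92, is the highest of the other genes, and the adhesion receptors other than Adgre1 have a median of -1.55.

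The genes most like each of the 6 in pattern were sought among the 8750 genes that averaged 10 CPM or more, by Pearson's r of log2(CPM + 0.1) over the 8 libraries, which is a description over lines and primary cultures alike. For Cd24a they were Dap3 (r = 0.994), E330020D12Rik and Acbd6, and for Gpm6a Zbtb2 (0.988), Acap1 and Gmeb1. For Galnt18 they were Siae (0.982), Ankrd44 and Cox7c, and for Icam2 Rell1 (0.990), Arid5a and Nck2. For Adgre1 they were Gramd1b (0.976), Dtx2 and Nrip1, and for Tgm2 Gbp4 (0.950), Ccdc9 and Tceanc. Most of these follow the order of the libraries with a much smaller range, Dap3 for instance between 26.5 CPM in PMC-306 and 18.0 ± 1.10 CPM in primary PMCs (SD, n = 6). Gbp4, a guanylate-binding protein gene of the interferon response, had the range of Tgm2 as well, with 71.5 CPM in PMC-306, 0.123 in PMC-303 and 4.13 ± 6.75 CPM in primary PMCs (SD, n = 6).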

How the data were processed

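RNA sequencing of 8 cultures was used, grouped by their labels. According to the study's methods, the authors prepared stranded total RNA libraries, trimmed reads with Trim Galore 0.6.7, aligned them to GRCm39 with STAR 2.7.9a and quantified them with Salmon 1.5.2. Whether quantification used the strand is not given in the sources used here. Estimated counts of genes and transcripts, not normalized, were deposited by the authors, as was TPM per gene, scaled by the authors for length and depth. A spreadsheet had rewritten 3.37% of gene count cells, 3.22% of transcript count cells and 20.8% of TPM cells, which were restored. None of the count cells of the 6 genes were affected (0), while 20 of their TPM cells were, and in 1 the decimal point was set to fit the counts. Restored gene counts were within 0.2 counts of the transcript sums in 99.7% of cells. As the deposited tables held such cells, they were not treated as count tables, and limma 3.58.1 (R 4.3.3) was used with its trended variance. P-values were adjusted by Benjamini-Hochberg over all genes that reached about 10 counts in as many libraries as the smaller group has and a sum of 15. The two-sided permutation tests were exact. In simulated data with 8-fold changes limma recovered 97 of 100 genes between sexes (13654 genes, 8 false calls) and 96 of 100 between lines and primary cultures (14349 genes, 8 false calls). The search for 5-fold differences in 1 library recovered 97 of 100 and also took up 97 unchanged genes of 12672. All changed genes of the simulation averaged at least 10 CPM in the primary cultures. Its recovery thus does not extend to genes as low there as Cd24a (0.970 CPM), Galnt18 (1.30 CPM) or Tgm2 (2.18 CPM). Chi-square per degree of freedom between primary libraries was 19.0 to 62.4, so that none was counted as a duplicate. P-values measure the spread between these cultures, which the labels call biological replicates without saying whether each came from its own mouse.

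The 6 genes, the gene lists and the tests were chosen with earlier results of these data known. Named are the 6 genes, list genes at least 5-fold from the primary mean in PMC-306 (at most 4 per list, else the 2 most abundant), the nearest neighbours and neighbours at least 5-fold different, the 3 genes most alike in pattern, and the highest gene of each marker list. List genes that limma called, other macrophage, endothelial and neuronal markers, Siglecg, Selp, St6galnac2, Gpm6b, Icam1, Itgb2, Itgal, F13a1, Fn1, Itgb1, Lyz2, Epor, Wdr17, Cep44 and Pecam1 were added after their values were seen. The result of 1 gene that this rule names is not reported here. Gene positions come from GENCODE M39, in which 98.9% of genes were found, and promoter windows from RefSeq on GRCm38.p6. Other calculations were made in Python 3.11.15 (scipy 1.17.1, pandas 2.3.3, numpy 2.4.6, matplotlib 3.10.9).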

Additional observations from a re-analysis of the deposited data

Results flagged for a closer look

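Of 15 genes examined for a culture far from the other 5 primary cultures, 3 had one. The rule was applied to CPM and not on the log scale used for the other tests. Its chance rate of about 1 in 20 assumes normally distributed values. Low and skewed CPM need not be so, and the 3 cannot be set against that rate. Gpm6a was at 12.1 CPM in female culture 3, and the next highest culture was at 2.34 CPM. Tgm2 was at 8.53 CPM in male culture 1, with 1.70 CPM next. Tgm1, another transglutaminase gene, was at 11.3 CPM in female culture 2, with 7.97 CPM next. The 3 values came from 3 different cultures.

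Both lines went in opposite directions from the primary mean for 2 of the 6 genes. The log2 fold of Adgre1 was 4.86 in PMC-306 and -2.73 in PMC-303, and that of Tgm2 was 5.05 and -2.55. With 1 library per line the difference between the lines was not tested.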

How the results depend on the processing

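Over 156 recomputed log2 folds of the 6 genes, 151 moved by less than the spread between primary cultures and 0 changed sign. Against male cultures alone Gpm6a was at 8.52 in PMC-306 and 7.64 in PMC-303, against the median Adgre1 at 6.65 and -0.95, and with an offset of 1 CPM Icam2 in PMC-306 at 2.96. Leaving out 1 primary culture gave 7.58 to 8.42 for Cd24a, 5.59 to 7.65 for Gpm6a, 5.59 to 5.98 for Galnt18, 4.66 to 5.69 for Adgre1, 4.0 to 4.53 for Icam2 and 4.81 to 6.23 for Tgm2 in PMC-306. With an offset of 1 CPM, 327 genes in place of 517 were at least 5-fold higher in PMC-306 and 325 in place of 508 in PMC-303. With total counts or TPM the median log2 fold of all genes was 0.12 to 0.17.

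For both lines against primary cultures, 4913 genes were called, 2158 against female and 3027 against male cultures alone. Higher were 2659, and 1326 against female cultures. Lower were 2254, and 973 by TPM, 832 against female and 1241 against male cultures. Of the list genes 8 were higher, 3 against female cultures, and 13 lower, 8 by TPM, 1 against female and 6 against male cultures, and 7 to 13 without 1 library, with 7 without PMC-306. The fits against 1 sex use fewer cultures. The sign of the female-male difference of Adgre1, 0.29, ran from -0.90 to 1.19 without 1 culture and turned without female culture 2 (-0.90), male culture 1 (-0.25) or male culture 2 (-0.07). The rho of Gpm6a with the macrophage sum was -0.94 by TPM (adjusted permutation p 0.10), and that of Tgm2, -0.03, was 0.14 by total counts and 0.31 by TPM. The cause of these changes was not tested.

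Replicate numbers were not taken to pair the cultures. Deviations of same-numbered female and male cultures correlated at 0.40, -0.22 and 0.28, and those of other-numbered cultures at -0.59 to 0.42. With so few cultures per sex these values cannot exclude a pairing. With the replicate block 5 genes were called between sexes in place of 6. edgeR and DESeq2 were not run because the deposited tables, with their rewritten cells, were not treated as count tables. Low counts in the primary cultures, 3 to 56 for Cd24a, 2 to 24 for Icam2 and 1 to 167 for Tgm2, limit the folds of these genes.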
